A study of Rattus norvegicus with 60 samples.

Results

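Collagens are the structural proteins of the extracellular matrix, and 42 of the 22865 genes in the RNA data carried a collagen chain's symbol, Col followed by the collagen's number, the letter a and the chain's number. Of these, 23 reached 1 FPKM (fragments per kilobase of transcript and per sequencing depth) in at least 5 libraries and were tested among 13153 genes, and 19 were below that minimum and are given by level. Hippocampal CA1 tissue came from Sprague-Dawley rats 90 to 120 d old, and polyA+ RNA was sequenced from 9 naive samples, from 6 place and 8 threat samples at 1 h, and from 5 place and 6 threat samples at 24 h. The training was contextual threat recognition training. The labels name the groups naive, place and threat, and the times 1 h and 24 h after training, without saying what place and threat animals met or when naive RNA was taken. DNA methylation was followed at each time by capture of methylated DNA with a methyl-binding domain protein, with 3 naive, 4 place and 3 threat libraries of captured DNA beside 3 of the uncaptured input. No allele, transgene or drug is named for any group.

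A collagen molecule is built of chains wound around each other, so a chain's mRNA can be made without its partners. Fibrillar collagens (types I, II, III, V, XI, XXIV and XXVII) assemble into fibrils, and fibril-associated collagens such as types IX, XII, XVI and XIX sit on fibrils or at basement membranes. Type IV forms the sheet of basement membranes, which in brain lies under the endothelium and around pericytes, and type VI forms beaded filaments beside basement membranes. Types XXIII and XXV span the cell membrane, type XXV being made by neurons, and type XVIII is a basement membrane proteoglycan that yields endostatin. Most fibrillar collagen of the brain is made in the meninges and in vessel walls, and collagen XIX is also made by hippocampal interneurons.

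Judged by the smallest steps between values, RNA depth lay between 0.838 and 1.215 times that of the median library, at 17.7 to 25.7 M recovered reads, and no pair of RNA libraries held the same values. Naive libraries 5 to 9 stand ahead of naive 1 to 4 in the deposited columns and had other levels, with 10.4% of the 13153 genes lower in 5 to 9. This split was made after seeing the data, and the labels name no batch. Threat 1 h libraries 4 and 7 held much choroid plexus RNA, the summed level of the 13 choroid plexus markers reaching 6883 FPKM against 33.6 to 318.5 FPKM in naive libraries, and place 1 h library 3 stood apart from its group for 4 collagens. Nothing in the labels ties each replicate to its own animal, so the p-values reflect sample-to-sample spread that could be technical in part.

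The regions just ahead of 3 genes that were lower at 24 h and are followed closely here, Col5a1, Col6a1 and Col19a1, are shown first, since their content of CpG, the pair that the captured DNA reports on, differed widely. The sequences are the 250 bases before the RefSeq gene start in the rat build GRCr8, 5′ to 3′ on the gene's strand, with each CpG in capitals. They lie at chr3:31606630-31606879 on the plus strand for Col5a1, chr20:11905440-11905689 on the plus strand for Col6a1 and chr9:34518258-34518507 on the minus strand for Col19a1.
Col5a1: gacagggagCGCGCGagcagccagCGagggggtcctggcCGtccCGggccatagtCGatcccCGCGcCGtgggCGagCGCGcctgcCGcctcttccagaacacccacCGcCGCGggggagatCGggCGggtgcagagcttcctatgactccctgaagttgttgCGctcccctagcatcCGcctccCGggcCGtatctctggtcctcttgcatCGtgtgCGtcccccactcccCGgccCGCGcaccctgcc
Col6a1: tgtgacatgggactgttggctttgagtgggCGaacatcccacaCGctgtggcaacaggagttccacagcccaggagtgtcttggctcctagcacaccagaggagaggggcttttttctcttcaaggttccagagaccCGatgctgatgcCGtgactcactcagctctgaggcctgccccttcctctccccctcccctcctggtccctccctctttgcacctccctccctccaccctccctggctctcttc
Col19a1: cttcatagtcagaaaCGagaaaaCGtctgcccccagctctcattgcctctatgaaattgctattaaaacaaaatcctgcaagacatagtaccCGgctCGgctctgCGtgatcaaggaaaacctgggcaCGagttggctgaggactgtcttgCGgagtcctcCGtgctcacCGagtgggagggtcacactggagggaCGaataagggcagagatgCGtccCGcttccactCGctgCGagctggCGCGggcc
The Col5a1 sequence held 28 CpG, the Col19a1 sequence 16 and the Col6a1 sequence 4. RefSeq's table matched 33 of the 42 collagens, which had a median of 10 CpG in this window against 5 over all 33469 promoters. The letters GGGCGG, the core of a GC box, were found on either strand in 19 of the 33 collagens (57.6%) and in 30.5% of all promoters. The letters TATAAA were found in 4 collagens (12.1%) and in 12.9% of all promoters, and in none of these 3 sequences.

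Per length, the collagen chains differed widely in level. Col11a2, a chain of the fibrillar collagen XI, was the highest at a mean of 23.6 FPKM over the 34 libraries, followed by Col25a1, the transmembrane collagen of neurons, at 10.2 FPKM and Col9a3, a chain of the fibril-associated collagen IX, at 6.84 FPKM. Type IV chains Col4a2 and Col4a1 were at 5.86 and 4.18 FPKM, Col16a1 at 5.66 FPKM, and type VI chains Col6a1 and Col6a2 at 4.94 and 3.22 FPKM. The type V chains Col5a3, Col5a1 and Col5a2 were at 4.65, 2.96 and 2.94 FPKM, and Col27a1 at 4.06 FPKM. The chains of the main fibrils of connective tissue were low, with Col1a1 at 1.43, Col1a2 at 1.21 and Col3a1 at 1.15 FPKM. Col19a1 stood at 1.404 FPKM, between Col18a1 at 1.42 and Col12a1 at 1.28 FPKM. Col24a1, which reached 1 FPKM in just 5 libraries, was the member nearest inside the minimum, and Col8a2 with 3 such libraries and Col8a1 with 2 were nearest outside it.

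At 24 h 13 of the 23 tested collagens were lower than in naive CA1 after threat training and 12 after place training, and none was higher. For comparison, 5.77% of all 13153 genes were lower in threat 24 h and 3.56% in place 24 h. The median difference of the 23 collagens was -0.39 on the log2(FPKM + 1) scale in threat and -0.34 in place, beside medians of 0.01 and 0.02 over all genes. The 12 chains called in both were Col5a1, Col11a1, Col11a2, Col24a1 and Col27a1 among fibrillar collagens, Col16a1 and Col19a1 among fibril-associated ones, Col4a1, Col4a2, Col6a1, Col6a2 and the transmembrane Col23a1. Both comparisons use the same 9 naive libraries and are therefore not independent of each other. Col11a1, Col19a1 and Col24a1 reached at most 0.637, 0.958 and 0.413 FPKM at 24 h. They met the minimum of 1 FPKM through naive and 1 h libraries alone, so their calls are not independent of the filter. With no filter 15 of 42 collagens were lower in threat and 10 in place, beside 6.28% and 3.11% of all genes called. Calls rest on limma's moderated test over all genes with Benjamini-Hochberg adjustment at 0.05. Fitted on the naive and place 24 h libraries alone, limma called no collagen and 0 of all genes in place 24 h, against 12 collagens when all 34 libraries share their spread, and without place 24 h library 5 it called 7. Fits that each left out 1 library called 235 to 1121 of all genes in place 24 h.

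Col5a1 encodes a chain of collagen V, which regulates the width of collagen fibrils. Its gene spans chr3:11789103-11935751 on the plus strand in the rat build rn5, and 234 to 1557 reads per library fell on it. Its level was 1.12 to 1.47 FPKM in the 6 threat 24 h libraries, with a median of 1.23 FPKM, and 0.933, 1.21, 1.32, 1.17 and 1.404 FPKM in the 5 place 24 h libraries. In the naive libraries it was 4.76, 4.43, 4.59 and 6.61 FPKM in numbers 1 to 4 and 2.31, 4.17, 2.31, 2.84 and 1.4996 FPKM in numbers 5 to 9. Every 24 h library was thus below every naive library, the nearest being naive 9. How many of all genes were apart from naive in this way was not counted. At 1 h the level was 2.58 to 5.54 FPKM in threat, with a median of 4.31, and 1.92 to 3.899 FPKM in place, with a median of 3.61, within the naive range. The means fell from 3.72 ± 1.60 FPKM (SD, n = 9) to 1.25 ± 0.115 (n = 6) in threat and 1.21 ± 0.18 (n = 5) in place. Differences were -0.99 ± 0.16 (SE) in threat, adjusted p = 0.000341, and -1.02 ± 0.17 in place, adjusted p = 0.00189 (limma).

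Col6a1 encodes a chain of collagen VI and lies at chr20:14817563-14835866 on the plus strand (rn5), with 311 to 2486 reads per library. Its level was 1.69 to 3.37 FPKM in threat 24 h, with a median of 2.38, and 1.77, 2.40, 1.78, 2.65 and 1.64 FPKM in place 24 h. Naive libraries 1 to 4 held 5.55, 4.40, 7.07 and 15.05 FPKM, and naive 5 to 9 held 5.25, 2.11, 3.47, 5.09 and 4.01 FPKM. Naive 4 was far above the rest and naive 6 lay within the range of the 24 h libraries, so the groups overlapped at that library. The 1 h libraries held 4.40 to 10.8 FPKM in threat and 3.30 to 7.30 FPKM in place. The difference from naive was -0.82 ± 0.22 in threat 24 h, adjusted p = 0.0159, and -1.02 ± 0.23 in place 24 h, adjusted p = 0.0105 (limma).

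Col19a1 encodes the chain of collagen XIX and lies at chr9:29339207-29668271 on the minus strand (rn5), with 77 to 374 reads per library. It was at 0.477 to 0.958 FPKM in threat 24 h, with a median of 0.781, and at 0.693, 0.645, 0.598, 0.624 and 0.721 FPKM in place 24 h. Naive 1 to 4 held 1.39, 1.99, 2.28 and 2.60 FPKM and naive 5 to 9 held 1.12, 1.10, 1.23, 1.60 and 1.38 FPKM. No 24 h library reached the lowest naive or 1 h library, the 1 h range being 1.36 to 2.12 FPKM in threat and 1.49 to 2.18 FPKM in place. The share of all genes separated in this way was not counted. The difference was -0.59 ± 0.10 in threat 24 h, adjusted p = 0.000298, and -0.64 ± 0.10 in place 24 h, adjusted p = 0.00134 (limma).

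**Figure D1:**
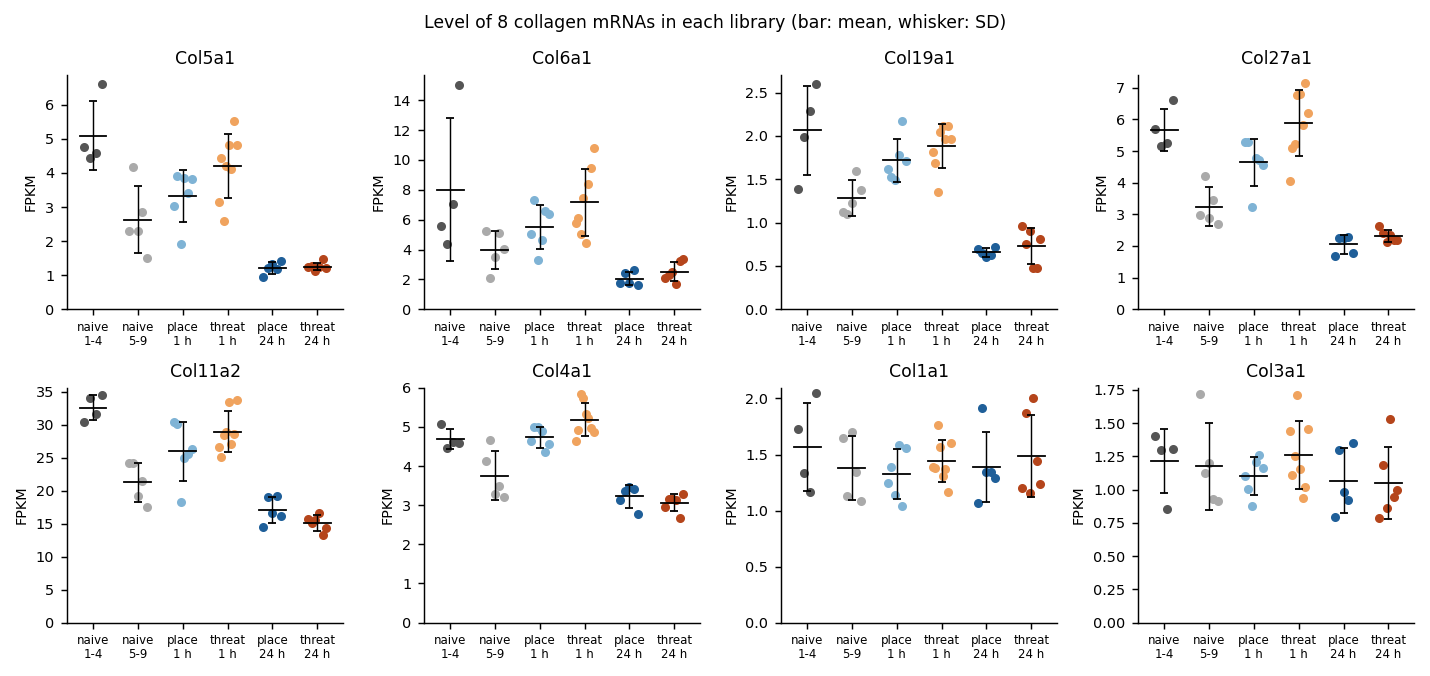
Level of 8 collagen mRNAs in FPKM (y axis, from 0) in each of the 34 RNA libraries (points) by group (x axis), with the naive libraries in their 2 blocks of columns; bars are means and whiskers SDs. Col5a1, Col19a1 and Col27a1 were lower in every 24 h library than in any naive or 1 h library, while Col1a1 and Col3a1 ranged alike in all groups. The share of all genes apart in this way was not counted.

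Among the 10 tested fibrillar chains, 5 were lower in each 24 h group. Besides Col5a1, Col11a2 went from 26.3 ± 6.43 FPKM in naive to 15.1 ± 1.16 in threat 24 h (difference -0.73 ± 0.12, adjusted p = 0.000287) and 17.1 ± 2.01 in place 24 h (-0.56 ± 0.13, adjusted p = 0.00913). Its highest threat 24 h library, at 16.6 FPKM, lay just under the lowest naive library, at 17.6 FPKM. Such separation was not counted over all genes. Col27a1, which is found in cartilage, went from 4.32 FPKM to 2.31 and 2.05 FPKM (-0.64 ± 0.13 and -0.76 ± 0.14), and Col11a1 from 0.952 FPKM to 0.478 and 0.413 FPKM (-0.39 ± 0.090 and -0.45 ± 0.096). Col24a1 was 0.727 FPKM in naive, 0.202 in threat 24 h and 0.215 in place 24 h. The other 5 fibrillar chains did not pass the test in either 24 h group. Col1a1 was 1.46 ± 0.331 FPKM in naive, 1.49 ± 0.368 in threat 24 h and 1.39 ± 0.313 in place 24 h, a difference of 0.01 (95% interval -0.17 to 0.19) in threat and -0.04 (-0.23 to 0.15) in place. Col3a1 differed by -0.10 (-0.27 to 0.08) and -0.08 (-0.27 to 0.10), and Col1a2, which overlaps Slc25a13 on the opposite strand, by 0.04 (-0.14 to 0.21) and -0.02 (-0.20 to 0.16). The type V partners of Col5a1 were -0.19 and -0.12 (Col5a2) and -0.21 and -0.11 (Col5a3), with adjusted p from 0.0741 to 0.580 (limma).

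Of the 3 tested type IV chains, Col4a2 and Col4a1 were lower in both 24 h groups. Col4a2 went from 6.10 ± 1.45 FPKM in naive to 3.79 ± 0.581 in threat and 4.07 ± 0.570 in place (-0.55 ± 0.12 and -0.46 ± 0.13, adjusted p = 0.00349 and 0.0286). Col4a1, its partner in the basement membrane of vessels, went from 4.17 ± 0.677 to 3.06 ± 0.220 and 3.23 ± 0.291 FPKM (-0.34 ± 0.067 and -0.28 ± 0.071). These genes lie head to head, 663 bp apart in rn5, and their levels moved together within groups (r = 0.69 over 34 libraries after subtracting group means). Col4a5 was 1.90, 1.84 and 1.71 FPKM in naive, threat 24 h and place 24 h and was not called. Both tested type VI chains were lower: Col6a2, 95659 bp from Col6a1 on the same strand, differed by -0.57 ± 0.17 and -0.60 ± 0.18 (adjusted p = 0.0283 and 0.0458).

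Of the 5 tested fibril-associated chains, Col16a1 (-0.65 ± 0.11 in threat and -0.60 ± 0.11 in place) and Col19a1 were lower in both 24 h groups. Col9a2 was lower in threat (-0.57 ± 0.11, adjusted p = 0.00178) and was -0.34 ± 0.12 in place (adjusted p = 0.0895), with no test passing for the difference between them. Col9a3, the higher of the type IX chains, was 6.55 ± 1.02 FPKM in naive, 5.40 ± 0.689 in threat 24 h and 6.69 ± 1.23 in place 24 h and was not called. Col12a1 was -0.26 and -0.33 (adjusted p = 0.0870 and 0.0630). Of the transmembrane chains Col23a1 was lower, from 3.31 ± 1.98 FPKM to 1.30 ± 0.684 in threat (adjusted p = 0.0381) and 1.11 ± 0.488 in place (adjusted p = 0.0404). Col25a1 went the other way without passing the test. It was 4.87 to 20.1 FPKM in naive, 8.08 to 17.8 in threat 24 h and 4.90 to 17.1 in place 24 h, a difference of 0.59 ± 0.27 (adjusted p = 0.154) and 0.52 ± 0.28 (adjusted p = 0.291). Col18a1 was -0.12 and -0.09 and was not called.

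**Figure D2:**
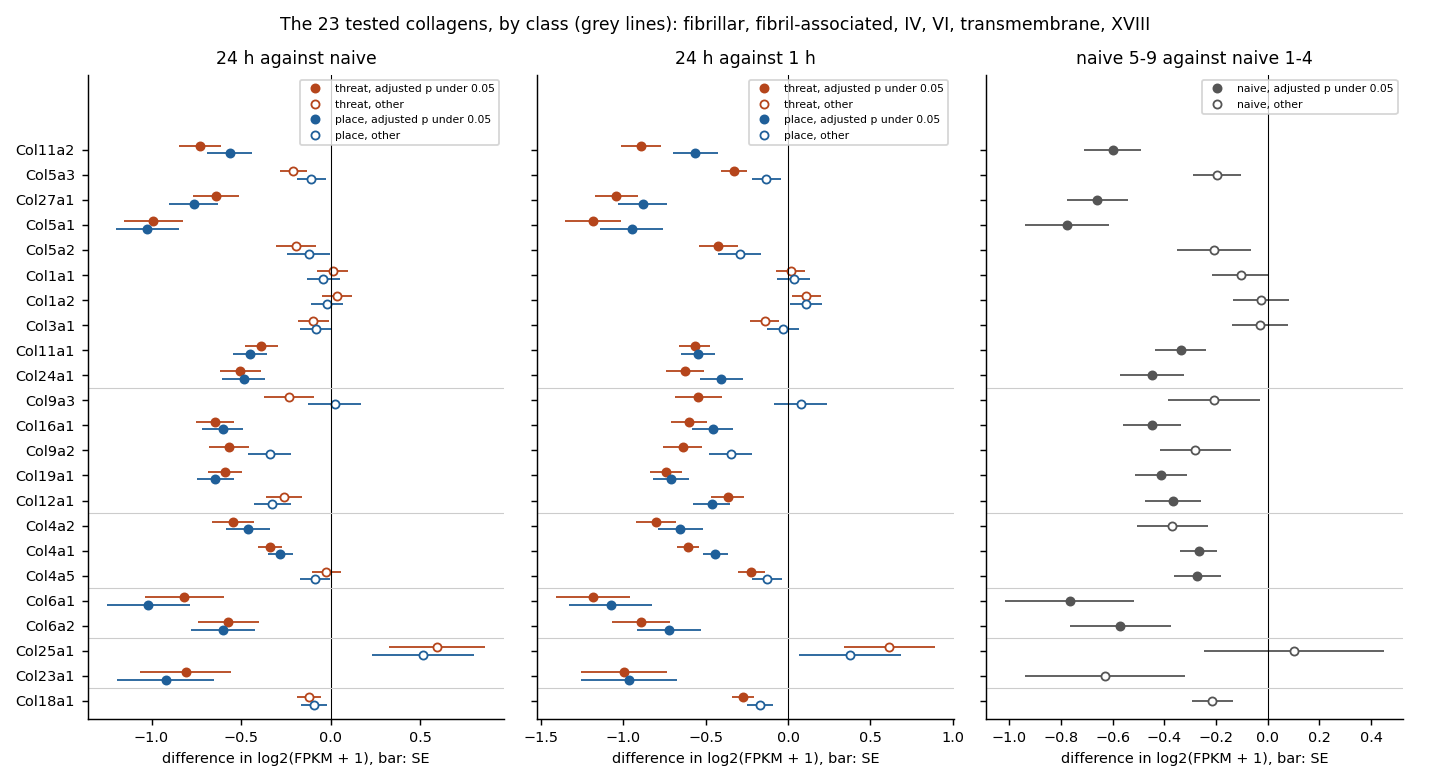
Difference in log2(FPKM + 1) (x axis, bars SE) of the 23 tested collagens (y axis, by class between grey lines) for 24 h against naive, 24 h against 1 h, and naive libraries 5 to 9 against 1 to 4; filled points have an adjusted p under 0.05. Col1a1, Col1a2 and Col3a1 lie near 0 in each panel, and chains lower at 24 h, such as Col5a1 and Col27a1, are also lower in naive 5 to 9.

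At 1 h few collagens differed from naive. Col4a1 was the 1 chain higher in threat 1 h (5.19 ± 0.427 FPKM against 4.17 ± 0.677, difference 0.27 ± 0.061, adjusted p = 0.0262), where 0.806% of all genes were higher. At an unadjusted p under 0.05 there were 9 collagens, beside 2120 of all 13153 genes (limma). The call of Col4a1 was lost without naive 7, 8 or 9 or threat 1 h 4 or 7. Against naive 5 to 9 alone, 13 collagens were higher in threat 1 h and 5 in place 1 h, in fits that called 2610 (19.8%) and 1665 (12.7%) of all genes in either direction. Against naive 1 to 4 alone none was higher in threat 1 h. No collagen differed between place 1 h and naive (limma, 0.129% of all genes called). At an unadjusted p under 0.05 there was 1 collagen, beside 1284 of all genes. Threat and place did not differ for any collagen at 1 h or at 24 h, nor in the interaction of training and time (limma). At an unadjusted p under 0.05 there were 2, 0 and 1 collagens, beside 560, 381 and 360 of all genes. In those 3 comparisons the test called 0% of all genes, and limma with voom weights on recovered reads called no collagen either. At 24 h the threat minus place difference was 0.03 (95% interval -0.35 to 0.42) for Col5a1, 0.20 (-0.31 to 0.71) for Col6a1 and 0.05 (-0.17 to 0.28) for Col19a1.

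Against 1 h of the same training, 19 of the 23 collagens were lower at 24 h in threat (16.8% of all genes lower) and 13 in place (6.64% of all genes lower). The 13 chains of place were all among the 19 of threat, and were the 12 that were lower than naive in both groups together with Col12a1. Among them Col11a1, Col19a1 and Col24a1 met the minimum for testing through naive and 1 h libraries alone. Col5a1 differed by -1.19 ± 0.17 in threat and -0.95 ± 0.19 in place, Col6a1 by -1.19 ± 0.22 and -1.08 ± 0.25, and Col19a1 by -0.74 ± 0.10 and -0.71 ± 0.11. Col27a1 differed by -1.04 ± 0.13 and -0.88 ± 0.15 and Col4a1 by -0.61 ± 0.068 and -0.44 ± 0.077. For Col5a1, Col19a1, Col27a1, Col11a1, Col4a1 and Col4a2, no 24 h library reached the lowest 1 h library. How many of all genes were apart in this way was not counted, so it is not shown to be a trait of collagens. Col1a1, Col1a2, Col3a1 and Col25a1 passed the test in none of the 10 comparisons. Marker lists of other cell types, described further on, moved in the same comparisons (limma). In threat 24 h against 1 h 11 of 23 endothelial markers were lower (median -0.22), 9 of 14 pericyte and smooth muscle markers (-0.27), 1 of 14 meningeal markers (-0.24) and 17 of 20 nuclear transcripts (-0.41). In place 24 h against 1 h the counts were 4 (-0.19), 1 (-0.10), 0 (0.02) and 15 (-0.29). Fits with a list's mean as a covariate, as described further on, gave other counts of collagens lower than at 1 h. With the endothelial list they were 13 in threat and 7 in place, beside 11.7% and 7.63% of all genes called. With the pericyte list they were 7 and 11, beside 4.36% and 8.78% of all genes called. With the nuclear transcripts they were 0 in both, in a fit that called 4 and 2 of all genes.

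The naive blocks differed in many of the same chains. In naive 5 to 9, 12 of the 23 collagens were lower than in naive 1 to 4, with a median difference of -0.34, beside 10.4% of all genes. Of these 12 collagens, 10 were among the 12 lower in both 24 h groups. The 2 chains lower in both 24 h groups but not called between the blocks were Col4a2 (-0.37 ± 0.14) and Col23a1 (-0.63 ± 0.31). Without naive 4 the count between the blocks was 6, with Col11a1, Col24a1, Col12a1, Col6a1, Col6a2 and Col4a5 no longer called. Fits that each left out 1 library called 1572 to 2802 of all genes between the blocks. In the same comparison of blocks 7 of 23 endothelial markers were lower (median -0.17), 4 of 14 pericyte and smooth muscle markers (-0.22), 0 of 14 meningeal markers (-0.05) and 14 of 20 nuclear transcripts (-0.32). With a list's mean as a covariate 8 collagens (endothelial), 4 (pericyte) or 0 (nuclear, with 5 of all genes called) were lower in naive 5 to 9. The endothelial and pericyte fits called 14.1% and 9.66% of all genes. Col5a1 differed by -0.78 ± 0.16 between the blocks, Col6a1 by -0.77 ± 0.25 and Col19a1 by -0.41 ± 0.10 (adjusted p = 0.000889, 0.0283 and 0.00378, limma). Set against naive 1 to 4 alone, the fall of Col5a1 was -1.42 in threat 24 h and -1.46 in place 24 h. Against naive 5 to 9 alone it was -0.65 (adjusted p = 0.0379) and -0.68 (adjusted p = 0.0760). Col19a1 was lower in both fits, by -0.82 and -0.87 against naive 1 to 4 and by -0.41 (adjusted p = 0.0123) and -0.46 (adjusted p = 0.0245) against naive 5 to 9. Col6a1 was lower against naive 1 to 4 (-1.24 and -1.44) and did not pass the test against naive 5 to 9 (-0.48, adjusted p = 0.355, and -0.68, adjusted p = 0.213). Against naive 5 to 9 the number of collagens called fell to 3 in threat and 1 in place, beside 0.456% and 0.0836% of all genes. Against naive 1 to 4 it was 16 and 15, beside 29.6% and 23.7% of all genes.

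Meningeal and vascular RNA was followed through lists of marker genes in the same libraries. Fewer cells of a type and less RNA per cell cannot be told apart in bulk tissue. None of the 14 tested meningeal and fibroblast markers was called at 24 h, with median differences of -0.06 in threat and 0.03 in place. The summed level of the list was 182 to 237 FPKM in naive, 159 to 232 FPKM in threat 24 h and 181 to 253 FPKM in place 24 h, so the groups overlapped. Ptgds, a prostaglandin D synthase of the leptomeninges that oligodendrocytes also make, differed by -0.15 and 0.03, Igf2, a growth factor of the meninges and choroid plexus, by -0.13 and 0.12, and the fibroblast proteoglycans Dcn by 0.35 and 0.01 and Bgn by 0.01 and 0.15, with adjusted p of 0.381 or more for all 4 (limma). Of the other 9 members, Foxc1 was at 0.349 to 0.981 FPKM, Cdh1 at 0.0364 to 0.327 FPKM, Foxd1 listed at 0 in 1 library, Slc47a1 in 6 and Dpep1 in 29 of the 34 libraries.

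Of the 23 tested endothelial markers, 2 were called lower in threat 24 h, the transporter Slco1a4 (-0.24, adjusted p = 0.0255) and the phosphatase Ptprb (-0.26, adjusted p = 0.0409), and 1 in place 24 h, Ptprb (-0.30, adjusted p = 0.0404). The medians were -0.16 and -0.14, with 23 and 22 members below zero. Of all genes 5.77% and 3.56% were called lower, and 46.3% and 44.3% lay below zero. Summed levels of the endothelial list were 183 to 246 FPKM in naive, 173 to 207 FPKM in threat 24 h and 190 to 230 FPKM in place 24 h. Cldn5, the tight junction protein of brain endothelium, differed by -0.09 and -0.03 and was not called. Of 14 tested pericyte and smooth muscle markers 6 were lower in threat 24 h and none in place 24 h, where limma gave medians of -0.19 and -0.08. Those named by lowest p were the pericyte receptor Pdgfrb (-0.28, adjusted p = 0.00785), the pericyte gene Rgs5 (-0.50, adjusted p = 0.0124), Vtn (-0.34, adjusted p = 0.0201) and Abcc9 (-0.26, adjusted p = 0.0275), which in place were -0.18, -0.30, -0.20 and -0.22. The smooth muscle gene Tagln was -0.13 and -0.04. Summed levels were 63.7 to 104 FPKM in naive, 58.2 to 71.9 FPKM in threat 24 h and 63.4 to 84.0 FPKM in place 24 h. No choroid plexus marker of 6 and no blood cell marker of 3 was called.

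With the meningeal list's mean as a covariate, the falls of the 3 genes were about as large as without it. Col5a1 was -0.98 in threat 24 h and -1.05 in place 24 h, Col6a1 -0.81 (adjusted p = 0.0190) and -1.04 (adjusted p = 0.00883), and Col19a1 -0.59 and -0.65, all past the threshold (limma). The range of this covariate was set by threat 1 h 4 and 7, whose means were 3.45 and 3.12 on the log2(FPKM + 1) scale against 2.15 to 2.59 in the other 32 libraries. Without these 2 libraries the covariate fit gave -0.94 (adjusted p = 0.000756) and -1.11 (adjusted p = 0.0017) for Col5a1, -0.81 (adjusted p = 0.0256) and -1.03 (adjusted p = 0.014) for Col6a1, and -0.60 (adjusted p = 0.000756) and -0.63 (adjusted p = 0.00218) for Col19a1. It called 13 collagens in threat 24 h and 12 in place 24 h, against 8.69% and 4.77% of all genes. This fit was chosen after seeing the data. With the endothelial list they were smaller. Col5a1 was -0.74 (adjusted p = 0.0123) and -0.80 (adjusted p = 0.0191) and Col19a1 -0.47 (adjusted p = 0.0115) and -0.54 (adjusted p = 0.0139), both called, while Col6a1 was -0.56 (adjusted p = 0.210) and -0.79 (adjusted p = 0.0646). With the pericyte list, place 24 h stayed called for all 3, at -0.83 for Col5a1, -0.80 for Col6a1 and -0.56 for Col19a1. In threat 24 h none of the 3 passed with that list, Col5a1 being -0.62 (adjusted p = 0.102), Col6a1 -0.39 (adjusted p = 0.570) and Col19a1 -0.44 (adjusted p = 0.0785). The pericyte fit called 12 of all genes in threat 24 h and 246 in place 24 h, with 0 and 7 collagens among them. With all 3 lists together Col5a1 was -0.63 (adjusted p = 0.0927) and -0.83 (adjusted p = 0.0136), Col6a1 -0.40 (adjusted p = 0.541) and -0.80 (adjusted p = 0.0561), and Col19a1 -0.43 (adjusted p = 0.0891) and -0.54 (adjusted p = 0.0136).

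A further list was one of nuclear transcripts. It holds 24 transcripts, 20 of them tested, known to stay in the nucleus or to keep introns, chosen with earlier results of these samples known and so not independent evidence. Of the 20, 17 were lower in threat 24 h and 15 in place 24 h, with medians of -0.40 and -0.31, and 14 were lower in naive 5 to 9 than in naive 1 to 4. Snhg11, a non-coding RNA of neurons, differed by -1.11 and -0.92, Leng8 by -1.11 and -1.02, and the splicing-related Clasrp by -0.87 and -0.75 and Pnisr by -0.60 and -0.46. The list's mean log2(FPKM + 1) was 4.18 to 4.31 in the 24 h libraries, 4.36 to 4.96 in naive and 4.45 to 4.84 at 1 h, so no 24 h library overlapped another group. With this mean as a covariate no gene of all 13153 was called in either 24 h comparison with naive. Col5a1 was then -0.01 (adjusted p = 0.991) and -0.19 (adjusted p = 0.570), Col6a1 0.24 (adjusted p = 0.828) and -0.13 (adjusted p = 0.868), and Col19a1 -0.17 (adjusted p = 0.697) and -0.28 (adjusted p = 0.298). Because its range at 24 h is separate from the other groups, the list's part and that of the group cannot be told apart in this fit.

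**Figure D3:**
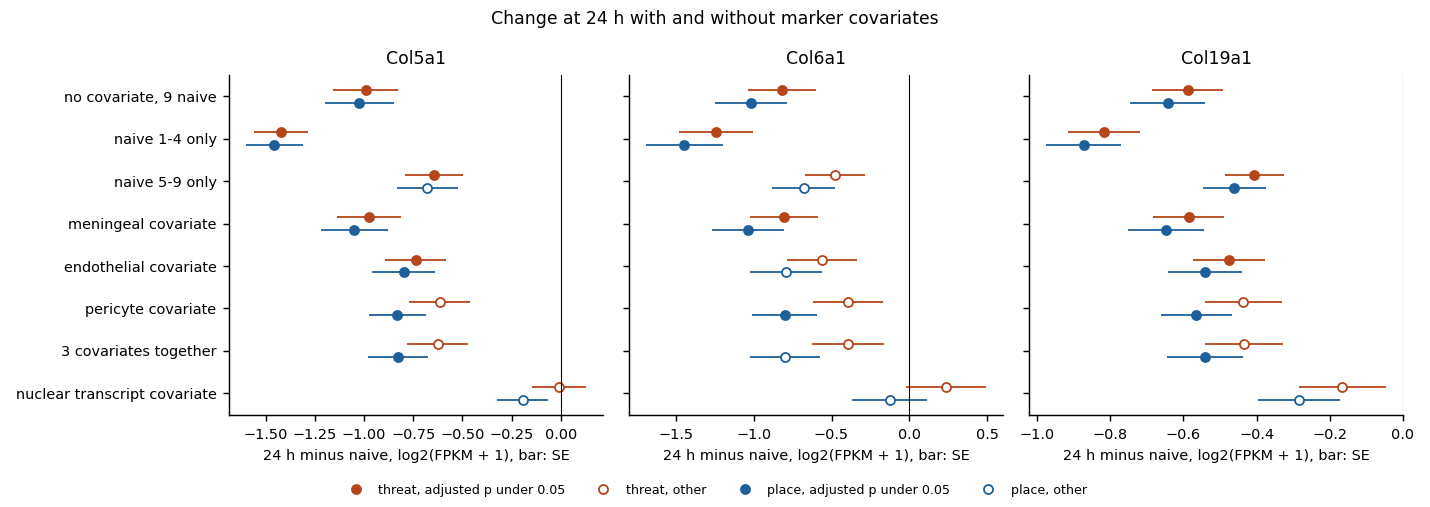
Difference of Col5a1, Col6a1 and Col19a1 between 24 h and naive in log2(FPKM + 1) (x axis, bars SE) for threat and place under 8 fits (y axis): all naive libraries, each naive block alone, and marker lists as covariates. Filled points have an adjusted p under 0.05. The meningeal covariate left the 3 genes near their uncorrected values, and the nuclear transcript covariate moved Col5a1 to -0.01 in threat.

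The same lists were compared with the 3 genes inside the groups, over the 34 libraries after subtracting the mean of each group, with the naive blocks taken separately. There were 15 such relations with 100000 permutations each. Col5a1 followed the nuclear transcripts (r = 0.743, permutation p = 9e-05, adjusted p = 0.00135; rho = 0.664, permutation p = 0.00026, adjusted 0.0039), with r = 0.586 without naive 9 and place 1 h 3. Col6a1 followed them too (r = 0.580, permutation p = 0.00336, adjusted p = 0.0252; rho = 0.586, adjusted 0.0169), with r = 0.587 without the same 2 libraries. For Col19a1 r was 0.349 (adjusted permutation p = 0.207; rho = 0.339). With meningeal markers r was 0.309 for Col5a1, 0.124 for Col6a1 and 0.0541 for Col19a1 (rho 0.313, 0.0157 and -0.0851), and without threat 1 h 4 and 7 it was 0.366, -0.0684 and -0.32. With endothelial markers r was 0.383, 0.256 and 0.232 (rho 0.211, 0.190 and 0.0524), and with pericyte markers 0.473, 0.388 and 0.223 (rho 0.349, 0.220 and 0.140). None of these 9 passed after adjustment, the lowest adjusted permutation p being 0.109 for Col5a1 with pericyte markers. The value of 0.383 for Col5a1 and endothelial markers became -0.0579 without place 1 h 3 and threat 1 h 3. With choroid plexus markers r was 0.298, 0.144 and 0.133 (rho 0.320, 0.083 and 0.102), and none passed after adjustment. Without threat 1 h 4 and 7 these r were 0.246, -0.043 and -0.109.

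The outcome depended on taking the naive blocks apart. With the 9 naive libraries as 1 group, in 15 further relations, Col5a1 passed with pericyte markers (r = 0.629, adjusted permutation p = 0.00885; rho = 0.389) and endothelial markers (r = 0.552, adjusted permutation p = 0.0107; rho = 0.337), Col6a1 with pericyte markers (r = 0.530, adjusted permutation p = 0.0195) and Col19a1 with endothelial markers (r = 0.437, adjusted permutation p = 0.0478). Without the 2 libraries farthest from the median, r for Col5a1 was 0.434 with pericyte and 0.385 with endothelial markers. Col6a1 with endothelial markers (r = 0.416) and Col19a1 with pericyte markers (r = 0.449) each had an adjusted permutation p of 0.0534. By rho no relation with the endothelial or pericyte list passed, the lowest adjusted permutation p being 0.141. All 3 genes passed with the nuclear transcripts, at r = 0.861 for Col5a1, 0.691 for Col6a1 and 0.653 for Col19a1 (adjusted permutation p = 0.00015, 0.00195 and 0.00953). No gene passed with meningeal markers by r, the lowest adjusted permutation p being 0.104 for Col5a1, whose rho of 0.428 did pass (adjusted permutation p = 0.0318). With choroid plexus markers none passed by r or by rho.

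**Figure D4:**
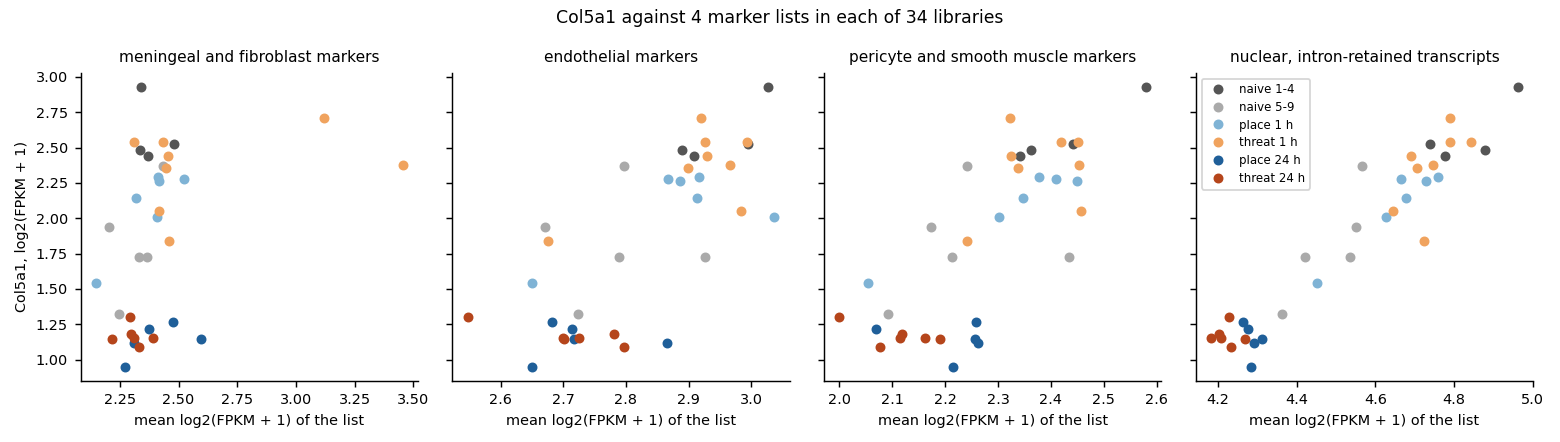
Level of Col5a1 as log2(FPKM + 1) (y axis) against the mean log2(FPKM + 1) of 4 marker lists (x axes) in the 34 RNA libraries, coloured by group with the naive blocks apart. The 24 h libraries share their meningeal range with the other groups, and on the nuclear transcript axis lie at 4.18 to 4.31, below all others.

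Genes that make, bind or cut collagen were followed as lists of their own. Of 23 tested genes of collagen synthesis and crosslinking, 2 were lower in each 24 h group: Leprel2, a prolyl 3-hydroxylase of collagen chains (-0.69, adjusted p = 0.00189, and -0.54, adjusted p = 0.0286), and Bmp1, which cleaves the end of procollagens (-0.38 in both, adjusted p = 0.00957 and 0.0228, limma). The chaperone isomerase P4hb (0.07 and 0.12), the cyclophilin Ppib (0.02 and 0.06) and the collagen-binding protein Sparc (0.23 and 0.21) were not called. None of 6 tested collagen receptors was called (limma), with Ddr1 at 0.02 and 0.14, Itgb1 at -0.04 and 0.05 and Gpr56 at -0.06 and -0.14. Among 9 genes of collagen breakdown, the gelatinase Mmp9 was the 1 called, and it was higher, from 0.841 FPKM in naive to 1.43 FPKM in threat 24 h and 1.46 FPKM in place 24 h (0.39 and 0.43, adjusted p = 0.0109 and 0.0150, limma). Of 17 other matrix partners, the basement membrane proteoglycan Agrn was lower in both (-0.54 and -0.55, adjusted p = 0.00101 and 0.00321) and the laminin chain Lamc1 in threat (-0.18, adjusted p = 0.0309). Over all genes 5.77% were lower and 4.32% higher in threat 24 h than in naive, and 3.56% and 1.49% in place 24 h. Other comparisons called more genes of these lists (limma). In threat 24 h against 1 h 9 of the 23 synthesis genes were lower and 1 higher, 1 of the 6 receptors was lower, 3 of the 9 breakdown genes were lower and 2 higher, and 6 of the 17 matrix partners were lower. In place 24 h against 1 h 4 synthesis genes were lower and 2 higher, 1 breakdown gene was higher and 1 matrix partner was lower. In naive 5 to 9 against 1 to 4, 5 synthesis genes were lower and 1 higher, and 3 matrix partners were lower. The shares of all genes lower and higher were 16.8% and 12.5% in threat 24 h against 1 h. They were 6.64% and 6.61% in place 24 h against 1 h, and 10.4% and 8.61% in the naive blocks.

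The genes most like each of the 3 collagens were ranked by r over the 34 libraries after subtracting group means, as a description. Col5a1 was most like Ssh3 (r = 0.827), Snrnp70 (0.817), Snhg11 (0.814), Akap8l (0.786), Trafd1 (0.780), Prpf40b (0.772), Col27a1 (0.764) and Rps6kb2 (0.762). For Col6a1 they were Phc1 (0.765), Dvl1 (0.747), Zbtb17, Ddx39b (0.739), Clk4 (0.737), Casp2 (0.736), Gp1bb and Mgat5b (0.721). For Col19a1 they were GJC1 (0.771), MAST1 (0.739), Tubg2 (0.735), Donson (0.735), Tmem145, Rab11fip4 (0.729) and Mapk11 (0.725). Col27a1 is the only collagen among these genes, Snhg11 and Clk4 are on the nuclear transcript list, and no member of the meningeal, endothelial or pericyte lists is among them. Over the 253 pairs of tested collagens the median r was 0.143, with a range from -0.850 to 0.830.

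The 19 collagens below the minimum were nearly silent in most libraries. Mean levels were 0.622 FPKM for Col8a2, 0.547 for Col8a1, 0.521 for Col20a1, 0.452 for Col4a3 and 0.421 for Col4a4. Col14a1 was at 0.210, Col6a5 at 0.201, Col13a1 at 0.164, Col15a1 at 0.151, Col2a1 at 0.145, Col4a6 at 0.141, Col9a1 at 0.137, Col7a1 at 0.129 and Col6a3 at 0.102 FPKM. Col6a6, Col22a1, Col10a1, Col6a4 and Col17a1 ranged from 0.0484 down to 0.0179 FPKM. Col6a3, the third chain of the main collagen VI molecule, was thus near the floor beside Col6a1 and Col6a2. Col9a1, which lies tail to tail with Col19a1, 13583 bp away in rn5, was low as well.

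Captured methylated DNA was compared over the genes' bins of 500 nt. Col6a1 was the highest of the 3 genes in captured over input RPKM (reads per kilobase and per sequencing depth), with 3.33 at 1 h and 2.35 at 24 h over its 37 bins, at percentiles 94.1 and 94.3 of all genes. Col5a1 was at 1.44 and 1.43 and Col19a1 at 1.20 and 1.24, beside medians of 1.03 and 1.11 over all genes. At 1 h the Col6a1 gene body held 1.90, 1.91 and 2.21 RPKM in naive, 2.08, 1.96, 1.88 and 2.27 in place, 2.58, 2.23 and 1.97 in threat, and 0.629, 0.644 and 0.621 in input. The naive, place and threat libraries overlapped, and all were above input. Within 1000 nt of the rn5 gene start Col5a1 had 0.355 and 0.447 of the input, Col6a1 1.82 and 1.57, and Col19a1 0.983 and 1.68, with medians of 0.322 and 0.625 over all genes. The CpG counts given above are for another build and a window of 250 bases, so the windows are not the same.

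No collagen gene body differed between groups: 0 of 39 tested were called at 1 h and 0 of 42 at 24 h (limma). The shares of all gene bodies called were 0.0054% for threat against naive at 1 h and 0% in the other 5 comparisons. At an unadjusted p under 0.05 there were 3, 0 and 1 collagens at 1 h (threat and then place against naive, then threat against place) and 20, 1 and 20 at 24 h. Over all gene bodies that cut passed 2279, 664 and 1761 of 18522 at 1 h. At 24 h it passed 4208, 918 and 5555 of 21077. The lowest p were for threat against place at 24 h, in Col5a2 (-0.14 ± 0.032, adjusted p = 0.0987), Col4a2 (0.11, adjusted p = 0.10015) and Col6a3 (0.15, adjusted p = 0.101). For Col6a1 threat against naive at 24 h was 0.18 ± 0.070 (adjusted p = 0.223), with 0.882, 0.787 and 0.777 RPKM in threat against 0.669, 0.723 and 0.678 RPKM in naive.

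Among single bins with captured signal, none of the 996 inside collagens was called at 1 h (limma, 119, 23 and 94 at an unadjusted p under 0.05 in the same order), where 0.016%, 0.00285% and 0.0174% of all 350378 bins were called. At the unadjusted cut 53954, 11719 and 34980 of all these bins passed. At 24 h none of 208 was called against naive, with 0.0105% of all 85335 bins called in threat and 0.0082% in place. At an unadjusted p under 0.05 (limma) there were 34 in threat and 11 in place, beside 19688 and 3649 of all bins. Threat was higher than place in 13 of the 208 (6.25%), below the share of all bins, 7.7%, and the median difference was 0.28 in both the collagens' bins and all bins. The bin chr3:11912001-11912500 (rn5) inside Col5a1, differed by 0.71 ± 0.16 (adjusted p = 0.0292), and the bin chr9:29666501-29667000 inside Col19a1, by 0.53 ± 0.17 (adjusted p = 0.0492). In other fits calls in the collagens' bins were counted over all 24 h comparisons together, in either direction. They numbered 0 without place 24 h captured library 3 or 4, 36 without library 1, and 0 at a filter of 2 RPKM on captured bins. Shares of all bins called in those fits are not given here.

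**Figure D5:**
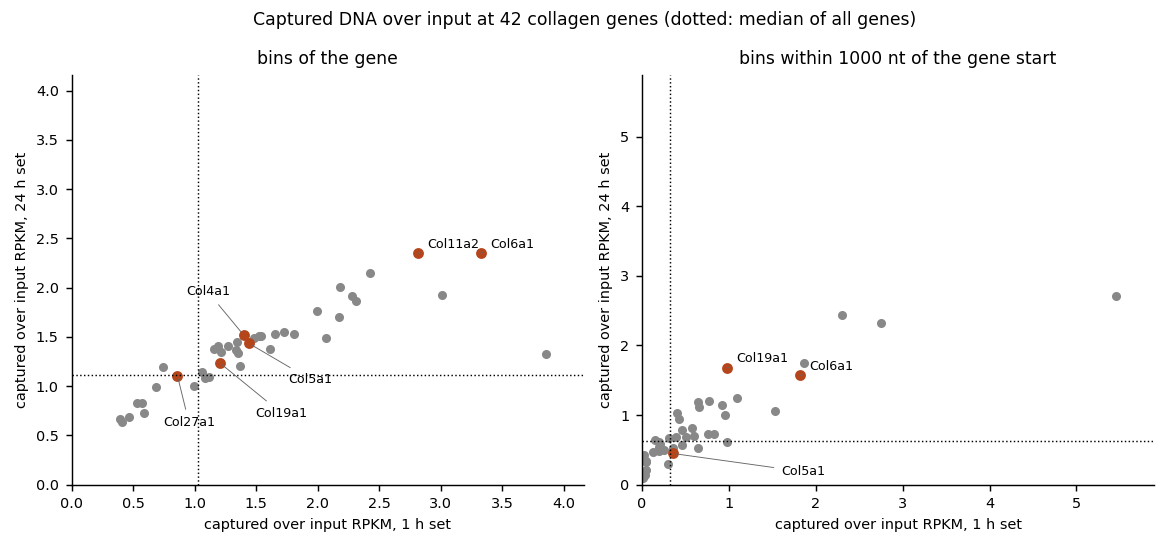
Captured over input RPKM of the 42 collagen genes in the 1 h set (x axis) and the 24 h set (y axis), over bins of the gene (left) and bins within 1000 nt of its start (right); dotted lines are medians over all genes, and named genes are in red. Col6a1 and Col11a2 lie at 2.35 in the 24 h set over the gene, and Col5a1 is below its input at the gene start, at 0.355 and 0.447.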

How the data were processed

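Per the labels, directional libraries were prepared from polyA+ RNA whose RIN exceeded 8. The authors deposited FPKM per gene and, for captured and input DNA, RPKM per bin of 500 nt. Tools named by the submitters' processing notes, without their roles, are Bowtie, edgeR, DESeq2 and TopHat 1.4.0, and builds rn5 and mm10. The deposited tables carry a mouse build in their titles, but gene identifiers and positions are those of rat rn5, so positions are given in rn5. Promoters come from RefSeq (GRCr8), and no position was moved between builds.

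Genes reaching 1 FPKM in 5 or more libraries entered limma 3.58.1 (R 4.3.3, trend) on log2(FPKM + 1) in 1 fit of 34 libraries, of 5 group means (29 residual degrees of freedom), and p-values were adjusted over 13153 genes. Fold changes are differences on that scale, which understates change at low levels. FPKM steps gave whole reads within 0.1 for 99.369% of tested genes, which allowed voom as an alternative added later. Captured DNA was tested per time on log2(RPKM + 0.25), in gene bodies at 0.1 RPKM or more and in bins at 1 RPKM or more and 2 times input, at depths between 31.4 and 39.9 M reads (1 h) and between 42.2 and 59.5 M reads (24 h). Covariates were list means of log2(FPKM + 1). Permutations and summaries used Python 3.11.15. The tests were tested on simulated data.

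The collagens and all lists were chosen with earlier results of these data known. Of 304 list members 292 were found. Values are named for collagens called in any RNA comparison, the 3 highest, up to 4 members of each list with the lowest p at 24 h and its 3 most abundant, and the 8 genes most like each of Col5a1, Col6a1 and Col19a1, of which 1 is not reported here. Members of the nuclear transcript list outside this rule were named after their values were seen. Alternatives were other pseudocounts, filters, scalings, naive blocks, covariates, a replicate block and leaving out each library.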

Additional observations from a re-analysis of the deposited data

Results flagged for a closer look

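Of 125 sets of values (25 collagens in 5 groups), 11 held a library whose gap to its nearest neighbour was large against the range of the group. Chance flags about 1 in 20. Place 1 h library 3 was apart for 4 genes, with Col27a1 at 3.25 FPKM (nearest 4.57) and Col5a3 at 3.46 (nearest 4.73) below, and Col4a2 at 9.58 (nearest 7.01) and Col5a2 at 4.30 (nearest 3.28) above its group. Naive 4 was high for both tested type VI chains, Col6a1 at 15.05 FPKM (nearest 7.07) and Col6a2 at 6.48 FPKM (nearest 4.28). Naive 6 was high for Col25a1, at 20.1 FPKM (nearest 11.99). Place 1 h 2 was high for Col9a2, at 3.97 FPKM (nearest 2.67). Col24a1 was low in place 1 h 6, at 0.299 FPKM (nearest 0.654), and high in threat 24 h 3, at 0.413 FPKM (nearest 0.194). Col8a2 was high in place 1 h 4, at 0.679 FPKM (nearest 0.288).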

How the results depend on the processing

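Beside leaving out single libraries, 151 of 193 counts of collagens or bins stayed within 1.5 times their value, and 938 of 1206 single values kept their direction and their side of the threshold. The 151 include counts of 0 that stayed 0, as for collagens between threat and place in every fit. They therefore do not measure how stable the calls are. Of the other single values 244 lost their call, 5 gained one and 19 changed sign. Most lost calls came from covariates: of 70 calls the pericyte list lost 40, the endothelial list 30, the 3 lists together 45, the nuclear list 51 beside the 19 sign changes, and the meningeal list 3, or 7 without threat 1 h 4 and 7. Counts that moved and the sign changes follow. At a minimum of 5 FPKM, where 10 collagens are tested, 7 were lower in threat 24 h and 7 in place 24 h than in naive, 9 and 7 against 1 h, and 6 in naive 5 to 9. That minimum left 8857 genes, of which 11.9%, 6.15%, 32.5%, 16.9% and 23.6% were called. For threat 1 h against naive the count was 0 with median-ratio scaling, quantile normalization, the compared groups alone, naive 1 to 4, the meningeal (with or without threat 1 h 4 and 7), 3 joint or nuclear covariates, and without 3 libraries (threat 1 h 4 and 7, place 1 h 3), 2 with array weights and 13 with naive 5 to 9. Array weights called 3.06% of all genes there and naive 5 to 9 called 19.8%. Naive 5 to 9 alone gave 5 for place 1 h, 3 for threat 24 h and 1 for place 24 h. Those fits called 12.7%, 0.456% and 0.0836% of all genes. The compared groups alone gave 0 for place 24 h against naive and 7 for the naive blocks. They called 0% and 14.6% of all genes there. The endothelial covariate gave 7 and 5 for threat and place 24 h against naive and 7 for place 24 h against 1 h. It called 1.63%, 1.76% and 7.63% of all genes there. The pericyte covariate gave 0 and 7, 7 for threat 24 h against 1 h and 4 for the naive blocks. It called 0.0912%, 1.87%, 4.36% and 9.66% of all genes there. The 3 together gave 0 and 6, then 9 (8 lower and 1 higher) and 8 against 1 h, and 4. They called 0.0608%, 2.05%, 4.23%, 7.86% and 11.5% of all genes there. Array weights called 1 collagen higher in place 24 h against naive and 1 in each training against 1 h. All genes called there were 12.7%, 39.2% (threat) and 31.4% (place). In threat 24 h against 1 h, 1 was also higher with the compared groups alone and with the meningeal covariate without threat 1 h 4 and 7. Those 2 fits called 31.3% and 17.1% of all genes. The nuclear covariate gave 0 in all. The cause of these shifts was not tested.

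With the nuclear covariate, differences changed sign. In threat 24 h against naive they were 0.12 for Col27a1, 0.24 for Col6a1 and 0.25 for Col6a2, and in place 24 h 0.031 for Col11a2 and 0.094 for Col6a2. In threat 24 h against 1 h they were 0.024 for Col5a1, 0.11 for Col16a1, 0.049 for Col5a3, 0.067 for Col12a1, 0.11 for Col6a1, 0.12 for Col6a2 and 0.13 for Col4a5. In place 24 h against 1 h they were 0.0096 for Col24a1, 0.042 for Col16a1 and 0.045 for Col11a2. In naive 5 to 9 they were 0.11 for Col5a1, 0.091 for Col16a1, 0.31 for Col6a1 and 0.31 for Col6a2.

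Leaving out each library in turn gave 0 to 2 collagens for threat 1 h, 11 to 15 for threat 24 h and 7 to 14 for place 24 h. It gave 18 to 19 and 11 to 13 against 1 h, and 6 to 13 for the naive blocks. Calls of bins, over all comparisons of a time together, numbered 0 to 19 at 1 h and 0 to 36 at 24 h. The RNA fits against naive called 37 to 618, 769 to 1838 and 235 to 1121 of all 13153 genes, in that order. Those against 1 h and between the naive blocks called 3271 to 4104, 1125 to 2086 and 1572 to 2802. Col5a1, Col6a1, Col19a1, Col11a1, Col11a2, Col16a1 and Col27a1 were called against naive at 24 h in all 34 of these fits, in threat and in place. Col23a1 was lost in 7 fits of each, and Col6a2 in 6 for threat and 20 for place.

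Calls of bins at 24 h, over all comparisons together, numbered 0 at 2 RPKM and 23 on log2(RPKM + 1). With the replicate number as a block the counts were 16 for threat 24 h, 13 for place 24 h and 5 for the naive blocks, and 26 for bins. Libraries of the same number were not alike (mean r -0.0099 against 0.0012 for other numbers, 5 of 34 most like their own number), so the numbers were not taken to pair samples.

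Low levels limit Col24a1 and Col11a1, which lie near the minimum, and the pseudocount shrinks their differences most.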

Other observations

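Col8a1 and Col8a2, chains of the network collagen VIII, were below the minimum and yet high in the same pair of libraries. Threat 1 h libraries 4 and 7 held 7.96 and 6.27 FPKM of Col8a1 and 5.32 and 3.37 FPKM of Col8a2, while the other 32 libraries held at most 0.391 and 1.03 FPKM. The same libraries held the most choroid plexus RNA, and the part of that RNA in the Col8a1 and Col8a2 levels was not tested. These genes were singled out after their values were seen.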
